A study of Mus musculus with 136 samples.

Results

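The sites described here are 412 genomic regions that held a SUZ12 peak in both MCM2-2A clones (439 and 442), held none in the WT clone (410), and overlapped an H3K27ac peak of the WT clone. They came from 8774 SUZ12 sites, made by merging the peak lists of the 3 clones wherever peaks overlapped by at least 1 bp. The WT list was the shortest, with 6298 peaks against 7571 in clone 439 and 7840 in clone 442. With equal numbers of strongest peaks per list, 210 sites met the rule. A site with peaks from both mutant clones and no WT peak is called mutant-shared. They numbered 944 (10.8% of all sites), of which 412 were acetylated in WT cells and 532 were not. For comparison, 1417 sites in all 3 lists (common sites) overlapped WT H3K27ac.

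All cells were E14JU, a mouse embryonic stem cell (ESC) line of strain 129/Ola, untreated and cultured in serum with LIF, the cytokine that keeps them undifferentiated. In MCM2-2A cells the histone-binding part of MCM2, a subunit of the replicative helicase, is mutated, and in WT cells it is intact. Each clone is a single line, so genotype and clone cannot be told apart for the 1 WT clone, and 2 clones stand for MCM2-2A. Each SUZ12 list combined 3 replicates. WT mark lists of an original experiment combined 2 replicates each, and those of a rescue experiment combined 3, so no spread between replicates could be given. The series has 136 samples, and 26 of them lay behind the 10 lists used.

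SUZ12 belongs to the core of PRC2, the Polycomb complex that places H3K27me3 on nucleosomes, mostly at CpG-rich promoters of developmental genes. H3K27ac sits on the same lysine, so 1 histone tail cannot carry both, and it marks active promoters and enhancers. H3K4me3 marks promoters, and in ESCs many promoters carry H3K4me3 together with H3K27me3, a state called bivalent. A site here is an interval of a few nucleosomes to many, so 2 marks that overlap it may lie on different nucleosomes, alleles or cells.

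The labelled cell type was checked in the WT mark lists. All 12 ESC markers, Pou5f1, Nanog and Esrrb among them, had H3K27ac and H3K4me3 within 2500 bp of their start. Their median H3K27ac fold enrichment was 29.1 (3.34 to 40.8). Of 8 fibroblast markers, Thy1 had H3K27ac (5.68) and the other 7 had none. H3K27ac lay at 3 of 4 neural, 1 of 4 endoderm and 3 of 4 trophoblast markers, none above a fold enrichment of 6.43. In the whole annotation 11769 of 21887 protein-coding genes had H3K27ac, with a median of 10.3. H3K4me3 did not separate the cell types. It lay at 5 of 8 fibroblast, 4 of 4 neural, 4 of 4 endoderm and 3 of 4 trophoblast markers, and at 15976 of all genes.

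Promoter sequences are shown for genes of the 10 strongest and the 10 most acetylated members, where the whole promoter window lay inside the SUZ12 peak of both MCM2-2A clones and overlapped WT H3K27ac. Of the genes at these sites, 4 met this. Each window runs 250 bases before to 50 bases after the annotated start (RefSeq, GRCm38.p6), and capitals mark CpG dinucleotides, the feature that PRC2 sites are known for.
Pon2, chr6:5298291-5298590, minus strand: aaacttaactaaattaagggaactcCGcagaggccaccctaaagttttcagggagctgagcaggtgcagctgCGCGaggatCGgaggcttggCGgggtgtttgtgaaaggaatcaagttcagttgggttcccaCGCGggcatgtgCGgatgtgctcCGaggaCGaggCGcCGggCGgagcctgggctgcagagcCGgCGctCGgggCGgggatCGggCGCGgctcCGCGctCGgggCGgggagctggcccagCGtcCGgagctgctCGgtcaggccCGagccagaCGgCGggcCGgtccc
Sall1, chr8:89042813-89043112, minus strand: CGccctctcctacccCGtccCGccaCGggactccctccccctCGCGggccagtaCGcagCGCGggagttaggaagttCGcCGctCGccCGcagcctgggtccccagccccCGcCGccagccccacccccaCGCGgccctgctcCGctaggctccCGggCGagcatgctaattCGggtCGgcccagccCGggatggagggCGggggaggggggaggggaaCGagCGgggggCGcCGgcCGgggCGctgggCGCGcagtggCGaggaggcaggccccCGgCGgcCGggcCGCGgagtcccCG
Gli2, chr1:119053570-119053869, minus strand: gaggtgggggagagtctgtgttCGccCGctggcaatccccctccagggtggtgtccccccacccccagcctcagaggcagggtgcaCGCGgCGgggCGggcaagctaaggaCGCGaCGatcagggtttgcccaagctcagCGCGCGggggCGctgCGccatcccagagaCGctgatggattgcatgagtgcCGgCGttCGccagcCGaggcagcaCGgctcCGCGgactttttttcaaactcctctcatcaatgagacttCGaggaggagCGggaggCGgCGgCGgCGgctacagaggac
Pdgfc, chr3:81036166-81036465, plus strand: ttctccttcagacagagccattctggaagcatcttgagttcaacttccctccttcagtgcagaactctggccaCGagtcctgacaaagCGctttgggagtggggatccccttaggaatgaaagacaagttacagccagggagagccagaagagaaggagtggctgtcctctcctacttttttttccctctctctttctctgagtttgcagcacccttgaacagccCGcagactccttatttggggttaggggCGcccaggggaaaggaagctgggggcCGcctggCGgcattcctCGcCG

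The Sall1 window held 39 CpGs, more than 94.2% of the 21263 promoter windows of protein-coding genes. The Pon2 window held 31, above 86.0% of them, and the Gli2 window 28, above 81.2%. The Pdgfc window, with 8 CpGs, was above 38.5% of all windows. Of the 4 windows, 3 were thus denser in CpG than most mouse promoters and 1 was not.

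The members were selected on SUZ12 peaks and on WT H3K27ac, so the strength and position of both are given as a description with no test. Overlap with WT H3K27ac was found at 412 of 944 mutant-shared sites (43.6%, 95% Wilson interval 40.5 to 46.8, counting error only) and at 2684 of all 8774 sites (30.6%). Sites of clone 439 alone had it at 256 of 810 (31.6%), and sites of clone 442 alone at 442 of 1058 (41.8%). Common sites had it at 26.4%, and sites of the WT clone alone at 38 of 213 (17.8%). Where the missing list was that of a single MCM2-2A clone, 68 of 209 sites shared by 410 and 442 (32.5%) and 51 of 174 shared by 410 and 439 (29.3%) were acetylated. The mutant-shared share lay above each of these, and the interval for 442 alone overlapped it. The shares were not adjusted for site width, and a wider site meets a peak more easily. Median width was 1662 bp at mutant-shared sites and 3127 bp at common sites. It was 995.5 bp for 439 alone, 1040 bp for 442 alone and 740 bp for 410 alone. Sites shared by 410 and 442 had 1493 bp, and those shared by 410 and 439 had 1371 bp.

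**Figure D1:**
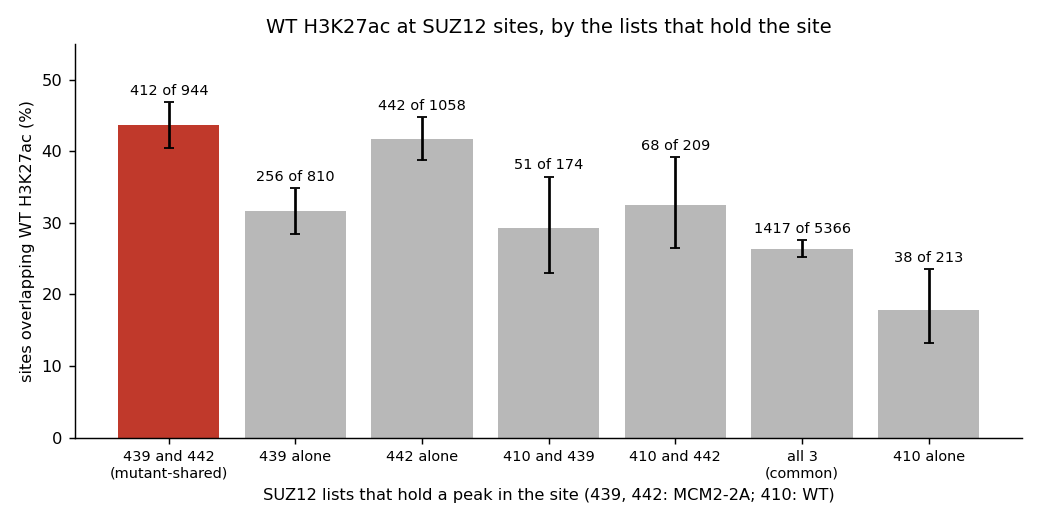
Share of SUZ12 sites that overlapped a WT H3K27ac peak (percent, y axis), by the SUZ12 lists that held a peak in the site (x axis), with 95% Wilson intervals and site counts. The mutant-shared bar (red, 412 of 944) stood at 43.6%, above the 26.4% of sites in all 3 lists, and its interval overlapped that of sites in 442 alone.

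Most members were weak SUZ12 peaks, as were the mutant-shared sites without H3K27ac. The strongest SUZ12 peak of a member had a median fold enrichment over local background of 6.36 in clone 439 (3.03 to 93.0) and 6.89 in clone 442 (3.40 to 57.0). At mutant-shared sites without H3K27ac the medians were 6.75 in clone 439 and 6.62 in clone 442. At the acetylated common sites they were 14.6 in clone 439 and 14.0 in clone 442. In both lists 384 of the 412 members (93.2%) lay below the median of all SUZ12 peaks, and 3 were in the upper quartile of both. Fold enrichment was higher in clone 442 at 254 members (61.7%). Across the 412 sites the values of the 2 clones had a Spearman correlation of 0.48, as a description, over peaks that were called in clones of 1 genotype. In 390 members (94.7%) the summits of the 2 clones lay within 500 bp of each other, with a median gap of 81 bp. The median member was 1748 bp wide, and 397 members held exactly 1 peak of each clone.

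**Figure D2:**
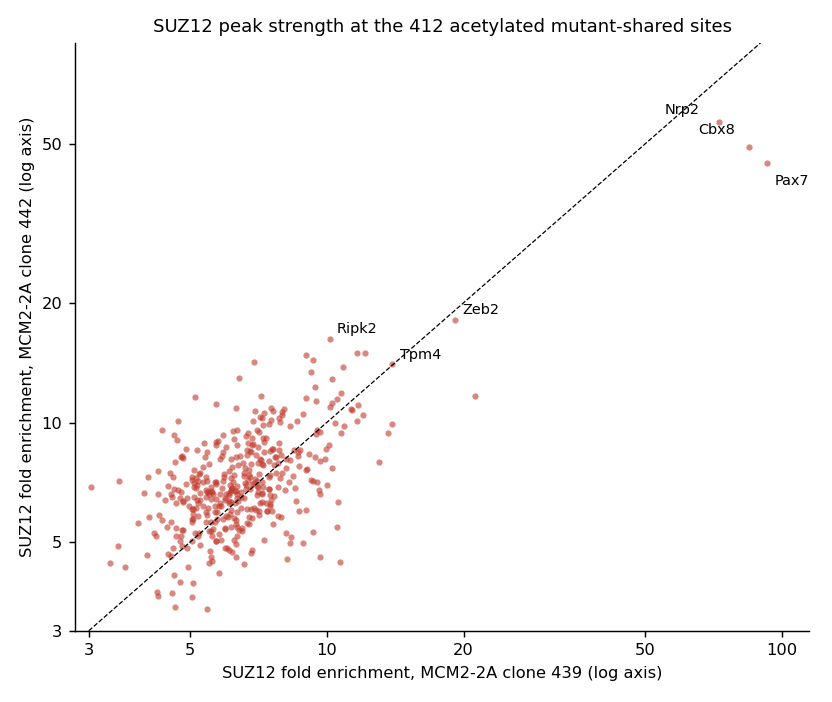
SUZ12 fold enrichment at each of the 412 members (points) in clone 439 (x axis) and clone 442 (y axis), both on log axes, with the line of equal values dashed. Nrp2, Cbx8 and Pax7 stood apart at 72.7 to 93.0 in clone 439 and 44.8 to 57.0 in clone 442, while the medians were 6.36 and 6.89.

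The 3 strongest members were at Nrp2, Cbx8 and Pax7. At Nrp2, which encodes a semaphorin and VEGF co-receptor (chr1:62701970-62709196), fold enrichment was 72.7 in clone 439 and 57.0 in clone 442. These ranked 275 of 7571 and 292 of 7840 peaks. At Cbx8, a chromobox subunit of Polycomb repressive complex 1 (PRC1, chr11:119033666-119060834), the values were 84.8 in clone 439 and 49.2 in clone 442. At Pax7, a regulator of neural crest and muscle stem cells (chr4:139818179-139840332), they were 93.0 in clone 439 and 44.8 in clone 442. The WT list held no peak in these sites, and its nearest peak lay 538299 bp from the Nrp2 site, 9632 bp from the Cbx8 site and 10814 bp from the Pax7 site. Absence here means absence from a filtered peak list. Whether the filter removed WT peaks at these 3 sites was not tested, and WT signal there was not analysed. The 3 sites were also among the 4 widest members, with the Cbx8 site the widest at 27169 bp.

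H3K27ac took up a small part of these wide sites. It covered 1462 bp of the Nrp2 site in 2 peaks, 752 bp of the Cbx8 site in 2 peaks and 855 bp of the Pax7 site in 3 peaks. The fold enrichment of the strongest was 4.85 at Nrp2, 6.94 at Cbx8 and 4.72 at Pax7, all below the median of acetylated genes. H3K27me3 of WT cells covered none of the Nrp2 and Cbx8 sites in the original list and all of both in the rescue list. The Pax7 site was covered in full in both lists. The annotation also put Cbx2 at the Cbx8 site through 1 of its gene ends, 2391 bp away. Its other end lay 10647 bp from the site, inside a SUZ12 peak of clones 439, 442 and 410.

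**Figure D3:**
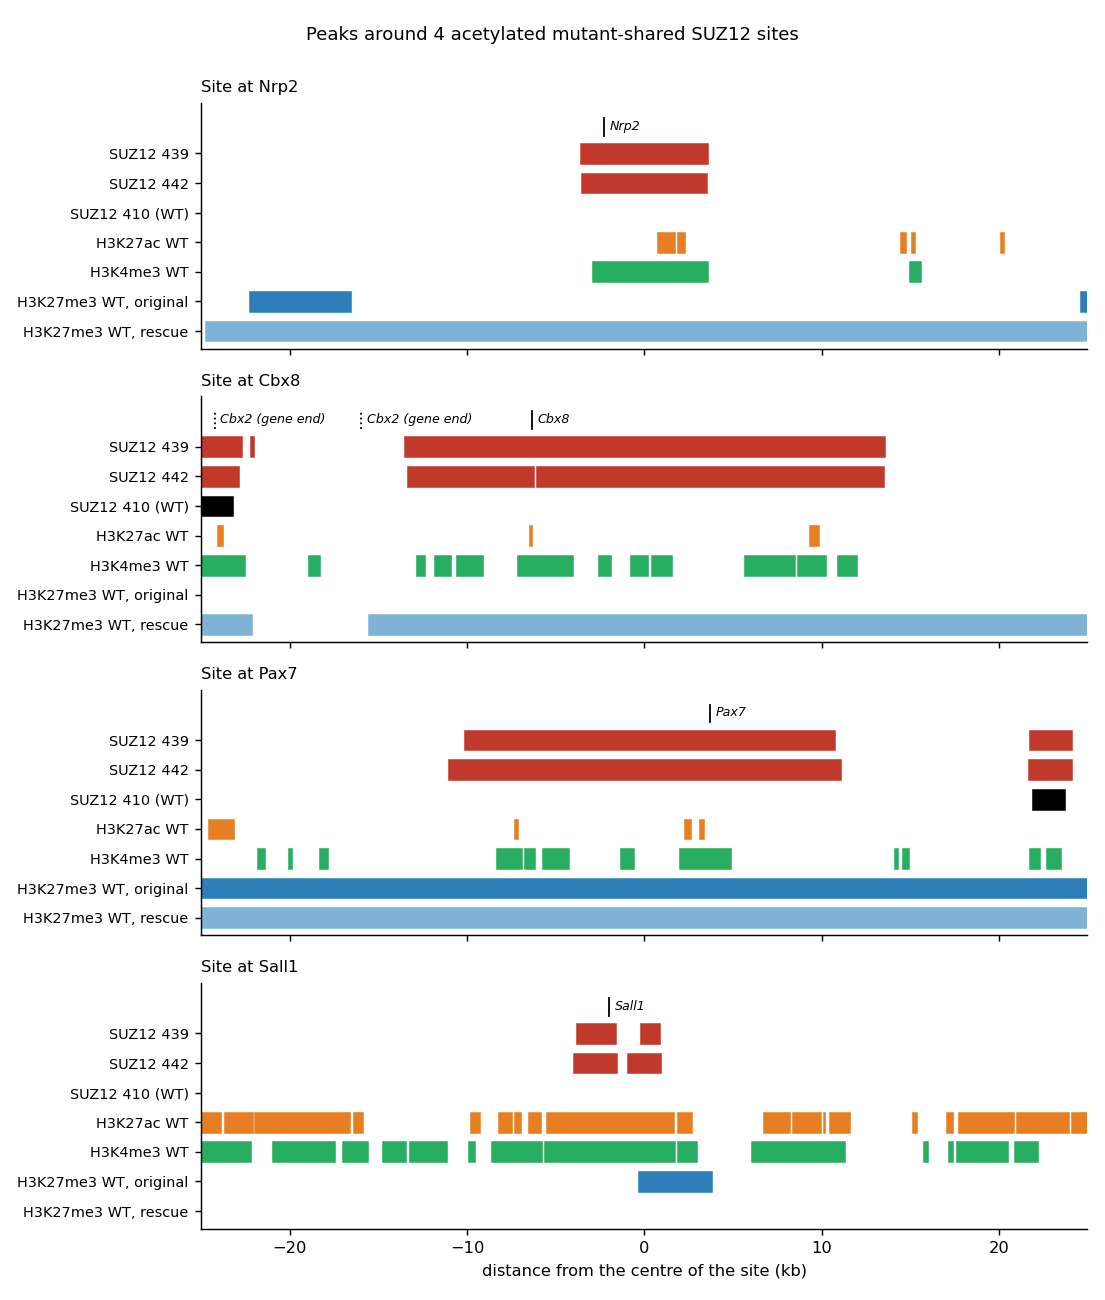
Peaks of SUZ12 in clones 439, 442 and 410 and of WT marks (rows) within 25 kb of the centre of the Nrp2, Cbx8, Pax7 and Sall1 sites (x axis, kb). Ticks are gene starts, dotted where only gene ends were known, and the WT SUZ12 row is empty across each centre. Inside the Nrp2, Cbx8 and Pax7 sites, H3K27ac lay in 2 or 3 short peaks, with further peaks drawn outside the sites. At Sall1 a single peak spanned both member sites.

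Among the other 7 of the 10 strongest members, Zeb2, a zinc finger repressor of epithelial genes, had a fold enrichment of 19.2 in clone 439 and 18.1 in clone 442. Its site ended 95 bp from a WT SUZ12 peak. Tpm4, an actin-binding tropomyosin, had 13.9 in clone 439 and 14.0 in clone 442, with no WT peak within 438945 bp. Ripk2, a kinase of innate immune signalling, had 10.2 in clone 439 and 16.3 in clone 442. Pon2, a paraoxonase whose promoter is printed above, had 10.9 in clone 439 and 13.8 in clone 442. The remaining sites were at Ndufa4l2 and Stac3, at Dipk2a, and at chr2:18024994-18036293. The SUZ12 summits of the last were 13809 bp from the nearest protein-coding start, and its WT H3K4me3 fold enrichment was 68.4. From Zeb2 onward the fold enrichment was below 22 in both clones.

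H3K27ac at the members was mostly moderate. The strongest H3K27ac peak of a member had a median fold enrichment of 5.60 (2.13 to 39.9), at the median percentile 72.7 of all 128247 H3K27ac peaks. In 60 members it was above the percentile 90 of that list, and in 85 below the percentile 50. H3K27ac covered a median of 29.2% of the site (494 bp). In 267 members there was a single H3K27ac peak and in 145 there were 2 or more, while 10 sites were covered from end to end. Across members, the strength of H3K27ac and the mean rank of SUZ12 had a Spearman correlation of -0.03 (n = 412 sites, as a description).

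The most acetylated member lay at Iqce and Brat1 (chr5:140701300-140702513), with a fold enrichment of 39.9, rank 258 of 128247 in the list. SUZ12 there was 6.10 in clone 439 and 6.66 in clone 442. Robo1, the Slit receptor of axon guidance (chr16:72663033-72665025), had 35.9 for H3K27ac and 4.84 and 8.17 for SUZ12 in clones 439 and 442. Sall1, a zinc finger regulator of kidney development, held a pair of member sites 575 bp apart under 1 H3K27ac peak with a fold enrichment of 21.1. SUZ12 was 4.41 and 4.64 in clone 439 and 6.38 and 7.95 in clone 442 at the 2 Sall1 sites. Gli2, a transcription factor of Hedgehog signalling, had 18.7, and the peak covered its whole site of 3583 bp.

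Other sites of high acetylation were at Lrrc41 and Uqcrh (25.9), Madd (18.7) and Pdgfc (17.2), which encodes a platelet-derived growth factor. The rest of the 10 had no protein-coding start within 2500 bp, at chr6:134926596-134927809 (27.7) and chr9:63131462-63133079 (19.6). Their WT H3K4me3 fold enrichment was 90.8 and 88.8, against a median of 81.8 at the members with such a start. The chr9 site was 931 bp from a WT SUZ12 peak. None of these 10 members was among the 10 strongest for SUZ12.

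H3K27ac was most frequent near the SUZ12 summits of members, yet in many members it did not hold the summits of both clones. At the midpoint of the summits it lay at 48.5% of members. At 1000 bp to either side it lay at 18.7% and 26.2%. Mean coverage of a member by H3K27ac was 36.0%. The rule placed H3K27ac inside each member, so these values are a description. The summits of both clones lay inside an H3K27ac peak in 160 members (38.8%), against 380 of the 1417 acetylated common sites (26.8%). The median distance from the midpoint of the SUZ12 summits to the strongest H3K27ac summit was 402 bp in members and 634 bp in the acetylated common sites. Common sites were wider, with a median of 3055 bp. The same summits lay inside an H3K4me3 peak in 407 members (98.8%), in 91.9% of mutant-shared sites without H3K27ac and in 99.9% of acetylated common sites.

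**Figure D4:**
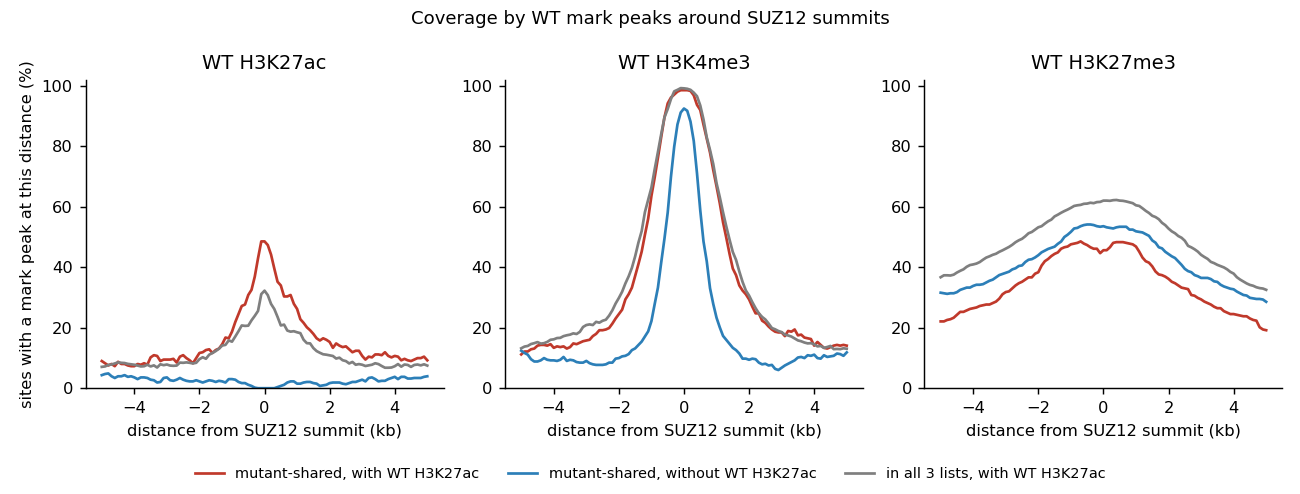
Share of sites (percent, y axis) with a WT mark peak at each distance from the midpoint of the SUZ12 summits (x axis, kb), for members (red), mutant-shared sites without WT H3K27ac (blue) and acetylated common sites (grey). At the summit, H3K27ac lay at 48.5% of members and 32.3% of acetylated common sites, and it is 0 for the blue line because of how those sites were chosen.

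Marks whose lists the choice of members did not use were compared next. They were not independent of that choice. H3K27ac, which separates members from the other mutant-shared sites, marks active promoters, where H3K4me3 and gene starts lie. WT SUZ12, which separates members from common sites, belongs to the complex that places H3K27me3. Differences in those directions could follow from the choice, and a test that passes cannot separate them from it. The size of each difference is therefore given beside its test, as a description. Gene starts and promoter CpG, compared below, share this limit. WT H3K4me3 of the original list lay at 411 of 412 members (99.8%), at 507 of 532 mutant-shared sites without H3K27ac (95.3%) and at 93.9% of all sites. The odds ratio against the sites without H3K27ac was 13.8 (two-sided Fisher's exact test, adjusted p = 3.06e-05). The call was lost when SUZ12 peaks within 1000 bp were merged (odds ratio 7.63, Fisher's exact test, adjusted p = 0.315). Acetylated common sites had H3K4me3 at 1416 of 1417, and the difference did not pass (exact test, adjusted p = 0.64). The member without it, at chr8:34731082-34732347, had an H3K4me3 peak of fold enrichment 4.63 in the rescue list, where all 412 members had H3K4me3. These tests compare sites of single lists, so their p-values take no account of the spread between replicates or clones, and neighbouring sites may not be independent.

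The H3K4me3 peaks at members were also strong. Their log2 fold enrichment averaged 6.13 ± 0.63 (SD over 411 sites), against 5.16 ± 1.09 (507 sites) at mutant-shared sites without H3K27ac. The difference of 0.97 passed a two-sided permutation test over sites (adjusted p = 2e-05, from the smallest p that 100000 permutations can give) and lay between 0.73 and 0.97 under all 7 alternatives. Against the acetylated common sites, at 6.04 ± 0.55 (1416 sites), members were higher by 0.09 (permutation test, adjusted p = 0.00786). That small difference was lost when nearby peaks were merged (0.06, permutation test, adjusted p = 0.0597) and when only H3K27ac peaks above the median strength counted (0.06, adjusted p = 0.0877).

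WT H3K27me3 divided the members. In the original list it lay at 230 members (55.8%), of which 229 were bivalent by overlap, carrying H3K4me3 as well, and 182 had H3K4me3 with no H3K27me3. The share was 57.2% over all sites and 57.0% at mutant-shared sites without H3K27ac, and the last comparison did not pass (exact test, adjusted p = 0.948). At acetylated common sites it was 64.7%, above that of members (odds ratio 0.69 for members, exact test, adjusted p = 0.00315). The call was lost with equal numbers of strongest SUZ12 peaks per list (odds ratio 0.71, exact test, adjusted p = 0.0667) and with the rescue list (0.95, adjusted p = 0.814). It was also lost within 4 groups of site width (Mantel-Haenszel chi-square test, odds ratio 0.85, adjusted p = 0.387).

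The part of the site covered by H3K27me3 also differed. It averaged 47.9% ± 46.6 (SD) in the 412 members and 61.3% ± 46.8 in the 1417 acetylated common sites, a difference of -13.5 percentage points (permutation test, adjusted p = 2e-05). This passed under all 7 alternatives, at -15.1 to -6.47, and the smallest difference was that within 4 groups of site width (permutation test, adjusted p = 0.0315). Members lacked a WT SUZ12 peak by choice while common sites held one, so lower coverage in members could follow from the choice. Against the mutant-shared sites without H3K27ac, covered over 54.1% ± 48.5, the difference was -6.24 percentage points (permutation test, adjusted p = 0.0552). It passed under 3 of 7 alternatives, at -7.36 with nearby peaks merged, -7.87 with H3K27ac peaks above the median strength and -7.12 within groups of site width. Coverage was close to all or none, with medians of 41.8% in members and 100% in the acetylated common sites, and 159 members were covered in full.

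The rescue list, whose H3K27me3 regions span 930 Mb against 363 Mb in the original list, changed many of these states. H3K27me3 lay at 338 members (82.0%) in the rescue list, at 76.9% of mutant-shared sites without H3K27ac, at 82.8% of acetylated common sites and at 77.5% of all sites. It was found in both lists at 208 members, in the rescue list alone at 130, in the original list alone at 22, and in neither at 52. Zeb2, Iqce and Lrrc41 were among the 52, and Pax7, Ntn1 and Neo1 among the 208. Members with H3K27me3 of the original list had a median H3K27ac fold enrichment of 5.36 (230 sites), and those without had 5.85 (182 sites). Their median SUZ12 fold enrichment was 6.37 and 6.35 in clone 439. The quartiles of both measures overlapped between members with and without H3K27me3.

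H3K9me3, the mark of heterochromatin and repeats, was rare. The original list had it at 6 members (1.46%), at 7 mutant-shared sites without H3K27ac (1.32%), at 25 acetylated common sites (1.76%) and at 2.06% of all sites. Neither comparison passed (exact tests, adjusted p = 1 and 0.948). The 6 members were at Itgb5, B3glct and Zfp629 and at 3 sites with no protein-coding gene start within 2500 bp. In the rescue list 23 members (5.58%) had it, against 4.89% of mutant-shared sites without H3K27ac, 7.41% of acetylated common sites and 6.84% of all sites.

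**Figure D5:**
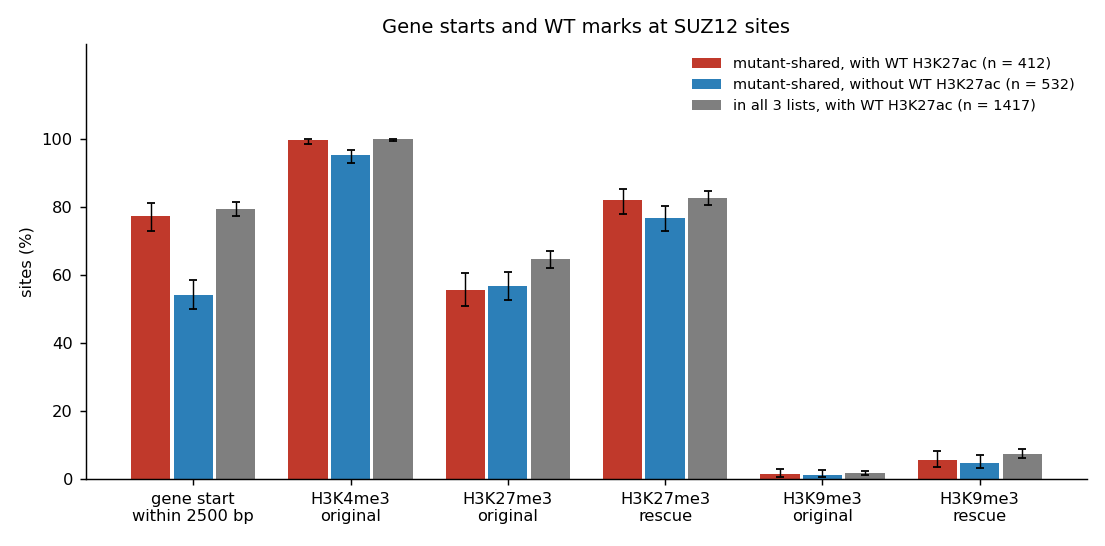
Share of sites (percent, y axis) with a gene start within 2500 bp or a WT mark (x axis) for members (red), mutant-shared sites without WT H3K27ac (blue) and acetylated common sites (grey), with 95% Wilson intervals. Members stood at 77.4% for gene starts against 54.3% for the blue bar, and at 55.8% for H3K27me3 of the original list against 64.7% for the grey bar.

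Members were mostly at promoters. A protein-coding gene start lay within 2500 bp of 319 members (77.4%), against 289 of 532 mutant-shared sites without H3K27ac (54.3%) and 68.1% of all sites. The odds ratio against the sites without H3K27ac was 2.87 (Fisher's exact test, adjusted p = 1.23e-12), and it passed under all 7 alternatives, 1 of them added after seeing the data, at 2.39 to 3.31. Acetylated common sites had a start at 79.5%, a difference that did not pass (exact test, adjusted p = 0.64). The annotation has no strand, so for genes with no promoter window either gene end stood in for the start, which placed 75 of the 319. With promoter windows alone, an alternative chosen after seeing the data, the shares were 60.4% of members and 38.9% of the sites without H3K27ac. The median distance from the SUZ12 summits to the nearest start was 413 bp in these 319 members.

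Promoter windows overlapped 228 members, and their CpG count averaged 25.3 ± 11.1 per 300 bases. At mutant-shared sites without H3K27ac it was 19.7 ± 11.4 (172 sites), 5.61 lower than in members (permutation test, adjusted p = 2e-05), and the difference was 4.10 to 6.26 under 6 alternatives. At acetylated common sites it was 25.2 ± 11.6 (808 sites), and the difference of 0.077 did not pass (permutation test, adjusted p = 0.928). The 265 windows at members had a median of 24 CpGs and 66.7% G and C, against 13 CpGs and 56.3% in all 21263 windows. Windows at all SUZ12 sites were near the members, with medians of 23 CpGs and 65.3%.

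Short motifs were counted on both strands of the same windows as a description. The GC box GGGCGG, which itself holds a CpG, was in 202 of 265 member windows (76.2%) and in 46.2% of all windows. In the windows printed above it occurred 3 times at Pon2, 1 time each at Sall1 and Gli2, and not at Pdgfc. The TATA box TATAAA was in 16 member windows (6.04%) and in 12.6% of all. The E-box CACGTG was in 11.7% of member windows against 7.84% of all, and the ETS box CCGGAAG in 9.43% against 11.6%. At the acetylated common sites the GC box stood at 70.8% and the TATA box at 6.81%, near the members. At mutant-shared sites without H3K27ac they stood at 71.6% and 6.70%. Over windows at all SUZ12 sites the GC box was in 71.1%, the TATA box in 6.77%, the E-box in 8.80% and the ETS box in 6.41%.

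The 93 members with no protein-coding start within 2500 bp are called distal here. Their SUZ12 summits were at a median of 20338 bp from the nearest such start (3815 to 332096 bp). Of these members, 41 lay inside a protein-coding gene. Starts of non-coding genes were not looked at, so a distal member may still be a promoter. Their median SUZ12 fold enrichment was 6.57 in clone 439 and 6.75 in clone 442, against 6.36 and 6.93 at members with a start. Median H3K27ac was 4.72, against 5.87 at members with a start. H3K4me3 lay at 92 of the 93, with a median fold enrichment of 59.7, against 81.8 at members with a start. H3K27me3 of the original list lay at 50 of the 93 (53.8%), against 180 of 319 (56.4%). Median coverage ran the other way for H3K27ac, at 33.5% of the site in distal members against 27.5% at members with a start, and for H3K27me3, at 62.6% against 40%. None of these differences was tested.

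Member sites lay within 2500 bp of a start or end of 360 protein-coding genes, 1.64% of the 21887 annotated. A promoter window placed 272 of these, and either gene end placed the other 88, among them Tbx3, Rb1, Slc2a3, Lrp6, Bambi, Kdm6b, Ntn1 and Tcf15. Of these, 32 genes also had a WT SUZ12 peak within 2500 bp of a start or end. More than 1 gene lay at 43 members. Among these pairs were Kdm6b with Tmem88, Jund with Iqcn, Frs3 with Prickle4 and Foxa3 with Sympk. Counts for gene lists are set beside that 1.64% and beside the 6.23% of genes with SUZ12 in any list that had a member. They are descriptions, since the lists were drawn up with results of these data known.

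Axon guidance genes had the highest share of the genes listed, though not of those with SUZ12 in any list. Of 70 semaphorin, plexin, ephrin, netrin and Slit-Robo genes, 8 had a member (11.4%, and 14.0% of the 57 with SUZ12 in any list). Beside Nrp2 and Robo1 these were the netrin receptor Neo1, the guidance cue Ntn1, the ephrin receptors Ephb3 and Ephb4, the ephrin Efna1, and the semaphorin Sema6c. Neo1 had SUZ12 at 6.77 and 7.60 in clones 439 and 442 and H3K27ac at 14.8. Ntn1 had 7.49 and 6.58 for SUZ12 and 8.48 for H3K27ac, and its site ended 81 bp from a WT SUZ12 peak. Ephb3 had 6.20 and 7.74 for SUZ12, 6.65 for H3K27ac and no H3K27me3 in either list. These genes spanned the range from the strongest member to SUZ12 values below the median.

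Polycomb subunit genes gave 4 of 38 (10.5%), and 26.7% of the 15 with SUZ12 in any list, the highest share on that scale. The DNA methylation list came next, at 25% (1 of 4). Cbx8 and Cbx2 were counted for the same site, and without Cbx2 the Polycomb list would not be highest. Beside Cbx8 and Cbx2 the genes were Phc2, a Polyhomeotic subunit of PRC1, and Pcgf1, the Polycomb ring finger subunit of a variant PRC1. Phc2 had SUZ12 at 7.23 and 7.82 in clones 439 and 442, H3K27ac at 4.33, and H3K27me3 over the whole site in both WT lists. Pcgf1 had 5.50 and 4.45 for SUZ12 and 9.58 for H3K27ac. No member lay at a gene of the PRC2 core, and Cbx2 and Pcgf1 were counted through a gene end.

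Among signalling lists, counts were 0 to 3 genes. For Wnt these were 2 of 46, the co-receptor Lrp6 and the transcription factor Tcf7, whose site was 318 bp from a WT SUZ12 peak. For Tgf-beta and Bmp they were 2 of 38, the activin receptor Acvr2b and the decoy receptor Bambi. For Fgf and Mapk they were 3 of 37, the Fgf receptor adaptors Frs2 and Frs3 and the AP-1 subunit Jund. Jund had SUZ12 at 4.72 in clone 439 and 10.1 in clone 442, one of the wider gaps between clones, and H3K27ac at 12.8 in 4 peaks. Hedgehog genes gave Gli2, 1 of 17, and Notch genes gave 0 of 31, although 17 of these had a common SUZ12 site.

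Of chromatin enzymes, DNA methylation genes gave 1 of 15 and histone methylation genes 2 of 40. Dnmt3b, the de novo DNA methyltransferase, had SUZ12 at 10.4 in clone 439 and 9.98 in clone 442, with H3K27ac at 6.23 over 1241 bp. Kmt2c, an H3K4 methyltransferase, had 5.17 and 7.26 for SUZ12, and Kdm6b, an H3K27 demethylase, had 5.45 and 6.71. Both were without H3K27me3 in the original list. The Kdm6b site also lay near Tmem88, and Kdm6b was counted through a gene end. Histone acetylation enzymes gave 0 of 30, of which 6 had SUZ12 in any list. Chromatin remodellers gave 0 of 32, of which 11 had SUZ12 in any list. With so few genes, 0 was near the 6.23% of all genes with SUZ12.

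Of pluripotency genes, Tbx3 alone (1 of 32, and 10% of the 10 with SUZ12 in any list) had a member, counted through a gene end. SUZ12 there was 5.45 in clone 439 and 5.87 in clone 442. H3K27ac was 13.0 and covered the whole site, which lay 1138 bp from a WT SUZ12 peak. Dnmt3b and Tcf15 were the 2 of 26 formative and primed genes. Germ layer regulators gave 3 of 50, namely Pax7, the endoderm factor Foxa3 and the mesoderm factor Tcf15, and 44 of the 50 had a common SUZ12 site. Hox genes gave 0 of 39, with 38 at common sites. The cell cycle list gave Rb1, the retinoblastoma protein, 1 of 37, and the glycolysis list gave the glucose transporter Slc2a3, 1 of 30. Slc2a3 had SUZ12 at 10.2 in clone 439 and 10.9 in clone 442 and H3K27ac at 10.3.

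Larger families lay nearer the share of all genes. Solute carrier genes gave 8 of 378 (2.12%) and Zfp genes 5 of 394 (1.27%). There was none among 132 ion channel genes, of which 83 had a common SUZ12 site. There was also none among 33 replication fork and histone chaperone, 81 ribosomal protein and 1106 olfactory receptor genes. SUZ12 in any list lay at only 1, 3 and 3 genes of these last lists, so 0 was near the 6.23% of all genes with SUZ12.

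Members were found on all chromosomes but Y. Over the genome they were 412 of 8774 SUZ12 sites. Apart from Y, their share was highest on chromosome 16 (20 of 238, 8.40%) and lowest on X (4 of 222, 1.80%). These are the extremes of many chromosomes, rest on small counts and were not tested. There were 7 pairs of members within 10000 bp of each other, among them the Sall1 pair and a pair at Socs2, a suppressor of cytokine signalling. Both sites of these 2 pairs lay at the same gene, so they are not independent.

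Values near the limits of the rule show how fine they were. The shortest overlaps with H3K27ac that made a member were 4 bp at Acap3, 15 bp at Itprid2 and 28 bp at chr11:103079953-103081407. The nearest sites left out, at Foxk1, B4galt5 and Gm40369, were 6, 9 and 11 bp from an H3K27ac peak. On the side of SUZ12, the members nearest to a WT peak were 81 bp away at Ntn1, 95 bp at Zeb2 and 108 bp at Pld1. A WT SUZ12 peak lay within 1000 bp of 16 members and within 10000 bp of 49, and 190 members were more than 100000 bp from one. The nearest WT peak was at a median distance of 84686 bp. Since the WT list ends at a score cutoff, a site without a WT peak may still hold WT signal below it, which peak lists cannot show.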

How the data were processed

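Chromatin immunoprecipitation followed by sequencing was analysed from 10 deposited peak lists. SUZ12 was profiled in crosslinked chromatin and histone marks in native chromatin, both with a Drosophila spike-in. MACS2 2.1.0, BWA 0.7.15, Picard 2.20.7, cutadapt 2.5 and the build mm10 are credited to the submitters' processing notes, and their settings were not known here. The authors deposited SUZ12, H3K4me3 and H3K27ac peaks with a fold enrichment (a ratio over local background) and a score. By their names the SUZ12 lists had passed an irreproducible discovery rate filter. Scores in them were 540 or more. A deposited −log10 q per peak served only to order ties in 1 alternative. Regions of H3K27me3 and H3K9me3 were deposited by the authors with strength columns that carry no name (a score whose scale was unknown), and only their positions were used. Peak lists carry no counts, so the depth of each sample was unknown.

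Sites, overlaps and distances were computed in Python 3.11.15 (pandas 2.3.3, numpy 2.4.6, scipy 1.17.1, statsmodels 0.14.6). Positions count from 1. Shares were compared by two-sided Fisher's exact tests, adjusted by Benjamini-Hochberg over 8 tests, with 0.5 added to each cell for odds ratios. Means were compared by two-sided permutation tests over sites (100000 permutations), adjusted over 6. Results passed at an adjusted p below 0.05. The code was tested on simulated data. Gene positions came from RefSeq (GRCm38.p6), where 17492 of 21887 protein-coding genes had promoter windows.

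Named sites were the 10 strongest for SUZ12 by mean rank in both MCM2-2A lists, the 10 strongest for H3K27ac, the 5 widest, those in H3K9me3, those nearest the H3K27ac limit, and up to 5 for each of 24 gene lists, 1 of which is not reported here. The members nearest a WT SUZ12 peak, Socs2 and the member without H3K4me3 were named after their values were seen. The members, lists and tests were chosen with earlier results of these data known. Alternatives were a merging distance, equal list lengths, stricter scores, stronger H3K27ac peaks, a larger overlap, groups of site width, the rescue lists and leaving out either MCM2-2A clone. Other lists and samples of the series were not used here.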

Additional observations from a re-analysis of the deposited data

How the results depend on the processing

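No paired analysis was possible because each list combines its replicates. For the same reason no replicate could be left out. Of 118 values under an alternative, 98 kept their direction and their side of the threshold (for counts and medians, their size). The number of members was 210 with equal numbers of strongest SUZ12 peaks, 665 without clone 442 and 857 without clone 439, and 298 to 399 under the other 4 alternatives. With peaks within 1000 bp merged, the H3K4me3 odds ratio against sites without H3K27ac was 7.63, the H3K4me3 difference from common sites 0.0609 and the H3K27me3 coverage difference from sites without H3K27ac -7.36 percentage points (permutation test, adjusted p = 0.0342, now past the threshold). With equal list lengths, odds ratios were 0.712 for H3K27me3 against common sites and 0.930 for H3K9me3 against sites without H3K27ac. With mutant scores of at least 830, odds ratios for H3K9me3 were 0.916 against sites without H3K27ac and 1.07 against common sites. With H3K27ac peaks above the median strength, H3K9me3 stood at 1.62 against common sites, H3K4me3 at 0.0612 above common sites, H3K27me3 coverage at -7.87 percentage points from sites without H3K27ac (permutation test, adjusted p = 0.0238) and promoter CpG at -0.764 from common sites. With an overlap of 50% of the shorter interval, the H3K9me3 odds ratio against sites without H3K27ac was 0.657. Within 4 groups of site width, the values were 0.846 for H3K27me3 and 1.28 for gene starts against common sites, and -7.12 percentage points for H3K27me3 coverage against sites without H3K27ac (permutation test, adjusted p = 0.0315). With the rescue list, H3K27me3 odds ratios were 1.37 against sites without H3K27ac and 0.947 against common sites. The cause of these shifts was not tested. Gene starts from promoter windows alone were an alternative chosen after seeing the data, and gave the same calls. Of 62 named sites, 22 were members under all 5 alternatives that change membership. Nrp2, Cbx8, Pax7 and Gli2 were among them, and Zeb2, Robo1, Sall1, Ntn1, Tbx3 and Tcf7 were not. No value has a replicate error, and peak lists limit what can be said of signal below their cutoffs.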

Other observations

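Strong SUZ12 sites were rarely missing from a single list. Of 1669 sites in the upper quartile of both MCM2-2A lists, 6 were missing from the WT list, and Nrp2, Cbx8 and Pax7 were the 3 of these with WT H3K27ac. The same count was 1 of 1458 for sites strong in 410 and 442 and missing from 439, and 0 of 1471 for sites strong in 410 and 439 and missing from 442. The WT list had peaks 9632 bp from the Cbx8 site and 10814 bp from the Pax7 site. Signal tracks at these 3 sites were not analysed here.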
